A study of Mus musculus with 12 samples.

Results

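De novo lipogenesis is the synthesis of fatty acids from sugar-derived carbon, and 10 genes of this route and of its control were followed in mouse liver: Srebf1, Mlxipl, Acly, Acaca, Acacb, Fasn, Scd1, Elovl6, Thrsp and Pnpla3. They were found by symbol in the gene names of the authors' deposited table, which holds 27109 loci, of which 23951 carry a name. All 10 were found, 8 of them at 1 locus and 2 (Mlxipl and Scd1) at 2 loci, so 12 loci hold a listed symbol. No locus merged a listed symbol with another gene. All mice were C57BL/6, and livers were taken 6 h after an intraperitoneal injection. The 4 groups were liver-specific Atf4 knockout mice (LsATF4-/-, here KO) given 1 mg/kg tunicamycin, wild-type mice (WT) given 1 mg/kg tunicamycin, KO mice given 0.3% DMSO, and WT mice given 0.3% DMSO. Each group had 3 libraries, 12 in all. Tunicamycin blocks N-linked glycosylation of proteins and so causes endoplasmic reticulum (ER) stress, and ATF4 is a transcription factor of the stress response. The labels and notes used here name neither the promoter that drives the deletion, nor the age and sex of the mice, nor any pooling of animals, and no label says whether the libraries of a group come from separate animals. The table gives 1 FPKM (sequenced fragments divided by transcript length and by the size of the library) per locus and group, so p-values rest on the spread that Cuffdiff estimated between the 3 pooled libraries, and no SD and no depth per library can be given. Per the labels, the 3 KO DMSO libraries ran on lane 5 and the other 9 on lane 4.

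Hepatocytes turn citrate from mitochondria into cytosolic acetyl-CoA, carboxylate it to malonyl-CoA, and join these units into palmitate, which is then elongated and desaturated. The transcription factor SREBP, made from Srebf1 and released from the ER membrane by cleavage, raises these enzymes under insulin. ChREBP, made from Mlxipl, raises many of the same genes when sugar is plentiful. The liver is the main site of the route in fed animals, and its products are stored or exported as triglyceride.

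The members differed widely in level on the FPKM scale. Scd1, the desaturase that makes oleate and palmitoleate, was the most abundant, with 938 FPKM in KO tunicamycin livers, 1249 FPKM in WT tunicamycin livers, 1324 FPKM in KO DMSO livers and 1750 FPKM in WT DMSO livers. It ranked between 45 and 53 among all named loci in every group. Thrsp, a small nuclear protein induced with the lipogenic enzymes by thyroid hormone and sugar, came next under DMSO, with 472 FPKM in KO and 344 FPKM in WT livers. Acly (ATP citrate lyase, the source of cytosolic acetyl-CoA), Mlxipl, Fasn (fatty acid synthase), Srebf1 and Elovl6 (the elongase of palmitate) lay between 12.3 and 116 FPKM across the 4 groups. Both acetyl-CoA carboxylases were lower in level, Acaca (the cytosolic form that supplies synthesis) at 7.36 to 10.9 FPKM and Acacb (the form at mitochondria, whose malonyl-CoA holds back fatty acid oxidation) at 4.08 to 30.2 FPKM. Pnpla3, a lipid-droplet protein related to lipases and regulated with the lipogenic genes, was the least abundant, between 0.166 and 1.34 FPKM.

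The genes also differed in how far their group values spread. The highest group value was 8.06 times the lowest for Pnpla3, 8.02 times for Srebf1, 7.41 times for Acacb, 4.20 times for Thrsp and 2.67 times for Fasn, but only 1.43 times for Acly and 1.48 times for Acaca. KO DMSO livers held the highest value of 7 members (Srebf1, Mlxipl, Acacb, Fasn, Elovl6, Thrsp and Pnpla3). The second locus of Mlxipl had 4.30 FPKM in KO tunicamycin, 7.63 FPKM in WT tunicamycin, 9.98 FPKM in KO DMSO and 8.44 FPKM in WT DMSO livers. The second Scd1 locus had 0.436, 0.668 and 1.46 FPKM in the first 3 of these groups and was listed at 0 in WT DMSO livers. Neither second locus was called in any comparison, and both cover the same interval as the main locus, so the split of reads between the copies is uncertain. Values below are for the main loci.

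**Figure D1:**
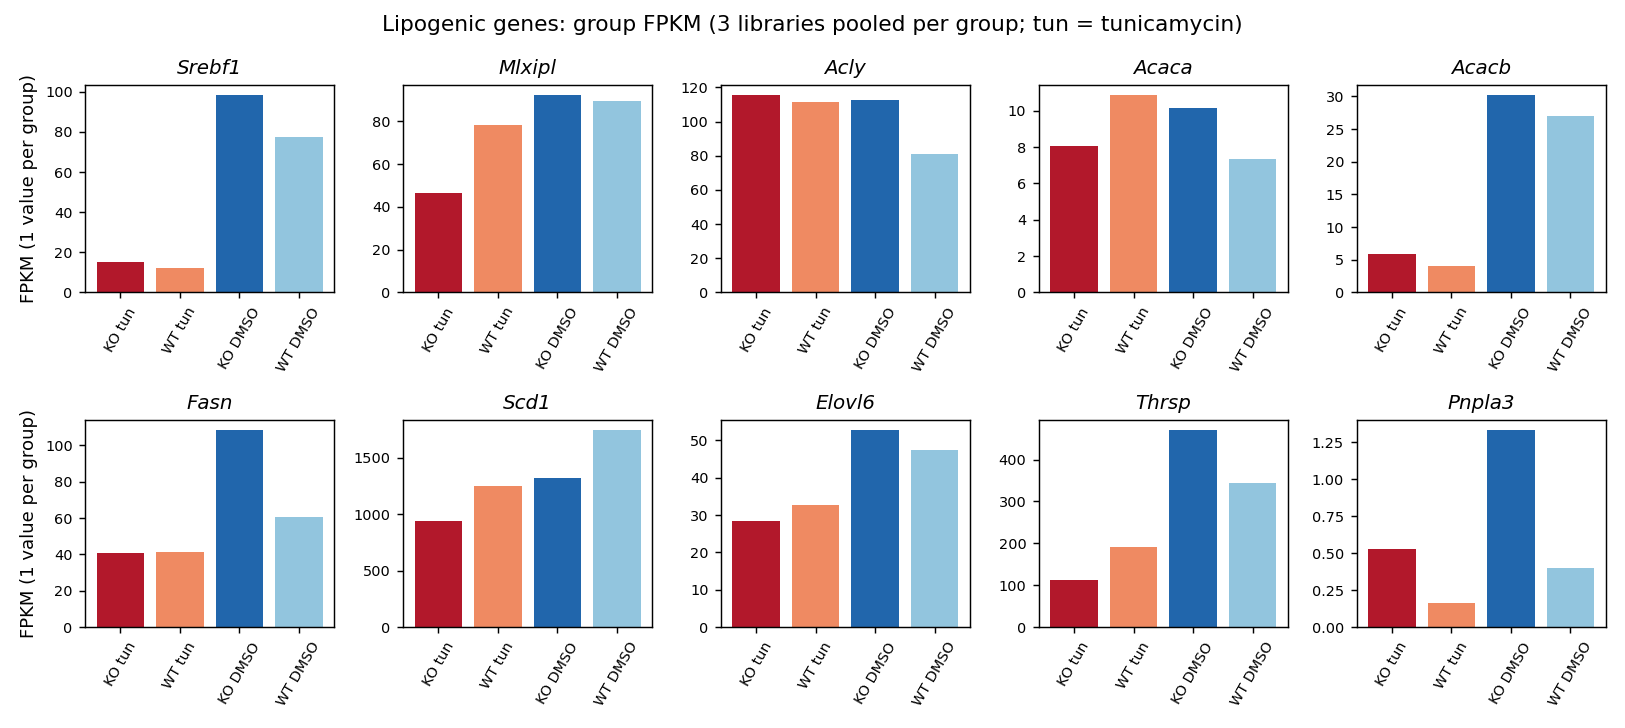
FPKM of each of the 10 genes (y axis, 1 panel per gene, each with its own scale from 0) in KO tunicamycin, WT tunicamycin, KO DMSO and WT DMSO livers, 1 bar per group with 3 libraries pooled. Srebf1 and Acacb are low in both tunicamycin groups, at 15.2 and 12.3 FPKM and at 5.88 and 4.08 FPKM, while Acly stays between 81.1 and 116 FPKM in all 4 groups.

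In build mm9 the authors' loci were Srebf1 at chr11:59918515-60034106, Mlxipl at chr5:135565744-135616209, Acly at chr11:100337665-100402408, Acaca at chr11:83993288-84215155, Acacb at chr5:114596230-114700774, Fasn at chr11:120667248-120685861, Scd1 at chr19:44468939-44482359, Elovl6 at chr3:129235304-129341413, Thrsp at chr7:104561441-104566043 and Pnpla3 at chr15:83998243-84019951, counted from 1. The interval of Srebf1 is shared in the table with Rai1, Mir6921 and Mir6922, and that of Pnpla3 with Mir6392, so reads there may be divided between neighbours.

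A few facts of the series bear on these genes. The targeted gene, Atf4, stands in a locus merged with Cacna1i, which had 114 FPKM in KO tunicamycin, 356 FPKM in WT tunicamycin, 22.8 FPKM in KO DMSO and 46.9 FPKM in WT DMSO livers. The 8 hepatocyte markers summed to 16210, 21034, 29073 and 38504 FPKM in the same order of groups, with albumin itself listed at 0 in all groups and marked there as having too much data to test. KO tunicamycin livers also carried RNA typical of other tissues: the 6 adrenal cortex markers summed to 1264 FPKM, against 6.76 to 23.4 FPKM in the other groups, and the 6 skeletal muscle markers to 281 FPKM, against 0.506 to 3.79 FPKM. The 8 adipocyte markers summed to 258 FPKM in KO tunicamycin livers, against 31 FPKM in WT tunicamycin, 33.8 FPKM in KO DMSO and 26.3 FPKM in WT DMSO livers. Adipocytes also make most of the lipogenic enzymes and Pnpla3, and muscle also makes Acacb. These are bulk samples, in which fewer cells of a type and less RNA per cell cannot be told apart.

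The 250 bases before the annotated start are printed for the 4 genes that were lower after tunicamycin in both genotypes (Srebf1, Acacb, Elovl6 and Thrsp). The same is printed for Acaca, the only one of the 10 called higher after tunicamycin. The windows show what stands before annotated starts of genes with like and unlike responses. They are RefSeq sequences of build GRCm38.p6, 5′ to 3′ on the gene's strand, with CCAAT boxes on either strand in capitals: Srebf1 (chr11:60222582-60222831, minus strand, the most upstream of 3 listed starts), Acacb (chr5:114165268-114165517, plus), Elovl6 (chr3:129532136-129532385, plus), Thrsp (chr7:97417551-97417800, minus) and Acaca (chr11:84195188-84195437, plus).
Srebf1: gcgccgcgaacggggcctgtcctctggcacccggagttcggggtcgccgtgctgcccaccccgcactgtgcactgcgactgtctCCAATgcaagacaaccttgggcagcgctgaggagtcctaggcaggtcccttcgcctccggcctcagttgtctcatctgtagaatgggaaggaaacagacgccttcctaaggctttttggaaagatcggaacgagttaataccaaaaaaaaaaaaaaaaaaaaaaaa
Acacb: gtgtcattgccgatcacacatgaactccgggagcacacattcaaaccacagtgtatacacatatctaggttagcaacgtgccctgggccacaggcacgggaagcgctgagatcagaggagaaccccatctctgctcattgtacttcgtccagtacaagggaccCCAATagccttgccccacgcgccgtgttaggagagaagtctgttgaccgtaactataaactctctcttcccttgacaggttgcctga
Elovl6: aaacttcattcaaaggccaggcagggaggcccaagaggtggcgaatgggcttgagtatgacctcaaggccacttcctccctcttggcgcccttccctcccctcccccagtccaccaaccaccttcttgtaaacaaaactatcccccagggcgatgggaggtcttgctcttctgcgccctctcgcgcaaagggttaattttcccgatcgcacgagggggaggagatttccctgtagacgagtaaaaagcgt
Thrsp: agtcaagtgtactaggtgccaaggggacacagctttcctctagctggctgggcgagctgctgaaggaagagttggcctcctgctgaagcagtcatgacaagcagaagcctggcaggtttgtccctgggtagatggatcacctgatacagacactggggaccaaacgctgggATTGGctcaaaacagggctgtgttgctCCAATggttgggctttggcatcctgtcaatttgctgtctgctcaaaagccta
Acaca: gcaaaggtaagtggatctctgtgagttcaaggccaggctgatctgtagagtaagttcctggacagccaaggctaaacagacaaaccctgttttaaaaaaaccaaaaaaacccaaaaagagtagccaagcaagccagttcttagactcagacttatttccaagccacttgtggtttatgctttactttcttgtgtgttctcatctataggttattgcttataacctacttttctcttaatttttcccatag
The printed Srebf1 window and the Acacb window held 1 CCAAT box each, 166 and 87 bases before the start. Another Srebf1 start, with its window at chr11:60210472-60210721 and not printed, had 1 as ATTGG, 30 bases before the start. The last of the 3 Srebf1 starts had none. The Thrsp window held 2, the first on the opposite strand as ATTGG, 79 and 52 bases before the start. The Elovl6 and Acaca windows held none. The Acaca window ends in cccatag, letters like those of an intron end, so its lack of a box describes that window and not a promoter. Which start liver uses is not given for any of these genes, so a window need not be the promoter behind the liver values. RefSeq had 12 promoter entries for 9 of the 10 members. Over windows of 300 bases (250 before and 50 from the start), both strands read, CCAAT (the NF-Y box, a frequent neighbour of SREBP sites) stood in 8 of the 12 entries and in 7 of the 9 genes, against 37.4% of all 32851 promoters. TCACNCCAC (a sterol response element) was found in 1 member gene, Mlxipl, and in 1.24% of all promoters. CACGTG (the E-box) was likewise found only in Mlxipl, and in 7.15% of all promoters. TGATGNAAN, the amino acid response element bound by ATF4, was found in none of the 9 and in 3.95% of all promoters. A match is a description of letters and not a bound site, and none of the other matches overlapped except 2 CCAAT boxes of Fasn on opposite strands.

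After tunicamycin the level of Srebf1, Acacb, Elovl6 and Thrsp was lower than after DMSO in both genotypes. In KO livers 7 of 10 members were lower and 0 were higher, also 0 at an unadjusted Cuffdiff p under 0.05, with a median log2 change of -1.17, against 0.01 over all loci tested. Of all loci tested in KO in the authors' deposited table, 14.8% were lower and 18.1% were higher. In WT livers 4 of 9 tested members were lower and 1 was higher, with a median log2 change of -0.53, against -0.02 over all loci, where 19.0% of loci tested were lower and 18.1% were higher. A member was called where the deposited q, a p-value adjusted for the number of tests, was under 0.05. The 4 genes lower in WT are among the 7 lower in KO. Hepatocyte markers had medians in the same direction, with median log2 changes of -0.70 in KO and -0.66 in WT. Of 7 tested, 3 were lower in KO and 3 in WT (Apoa2, Serpina1a and Ttr in both), and 0 were called higher. Tat went the other way without a call (log2 0.58 in KO and 0.87 in WT, Cuffdiff q 0.238 and 0.0688). The part of these markers in the members' values was not tested. The KO comparison sets lane 4 against lane 5, so lane and treatment cannot be told apart there, while all WT libraries ran on lane 4.

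Among the transcription factors, Srebf1 had the larger change. It had 15.2 FPKM in KO tunicamycin livers, against 98.5 FPKM in KO DMSO livers, and 12.3 FPKM in WT tunicamycin livers, against 77.4 FPKM in WT DMSO livers. Both tunicamycin values lie far below both DMSO values. The authors' deposited table gives it log2 changes of -2.69 ± 0.24 in KO and -2.66 ± 0.25 in WT (SE derived from the deposited test, 3 libraries a group, Cuffdiff q 0.000396 in both), or 6.47-fold and 6.30-fold lower. Mlxipl had 46.6 FPKM in KO tunicamycin livers, against 92.4 FPKM in KO DMSO livers, and 78.3 FPKM in WT tunicamycin livers, against 89.3 FPKM in WT DMSO livers. In the authors' deposited table it fell in KO by 0.99 ± 0.25 on the log2 scale (Cuffdiff q 0.000396), while the WT change of -0.19 ± 0.24 was not called (Cuffdiff q 0.65). The level of Mlxipl was 3.06 and 6.38 times that of Srebf1 in KO and WT tunicamycin livers, and 0.938 and 1.15 times in KO and WT DMSO livers, so the order of the pair differed between treatments in KO.

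The enzymes of chain synthesis did not move as a block. Acacb fell in both genotypes, to 5.88 FPKM in KO tunicamycin livers, against 30.2 FPKM in KO DMSO livers, and to 4.08 FPKM in WT tunicamycin livers, against 27.0 FPKM in WT DMSO livers. Its log2 changes in the authors' deposited table were -2.36 ± 0.22 in KO and -2.73 ± 0.23 in WT (SE, Cuffdiff q 0.000396 in both). Its paralogue Acaca had 8.08 FPKM in KO tunicamycin and 10.2 FPKM in KO DMSO livers, a log2 change of -0.33 ± 0.20 that was not called (Cuffdiff q 0.243, authors' deposited table). In WT livers Acaca was higher, with 10.9 FPKM after tunicamycin, against 7.36 FPKM after DMSO, a log2 change of 0.56 ± 0.20 in the authors' deposited table (Cuffdiff q 0.0234). The order of the 2 carboxylases per length differed between treatments in both genotypes: the ratio of Acaca to Acacb was 1.37 and 2.66 in KO and WT tunicamycin livers, against 0.336 and 0.272 in KO and WT DMSO livers.

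Acly, at the head of the route, had 116 FPKM in KO tunicamycin and 113 FPKM in KO DMSO livers, and 111 FPKM in WT tunicamycin and 81.1 FPKM in WT DMSO livers. Neither log2 change in the authors' deposited table was called, at 0.03 ± 0.22 in KO (Cuffdiff q 0.948) and 0.46 ± 0.23 in WT (Cuffdiff q 0.128). Fasn, at the end of it, fell in KO to 40.7 FPKM after tunicamycin, against 109 FPKM after DMSO. This is a 2.67-fold lower level, or a log2 change of -1.42 ± 0.25 in the authors' deposited table (Cuffdiff q 0.000396). In WT livers Fasn had 41.4 FPKM after tunicamycin and 60.7 FPKM after DMSO, with a deposited log2 change of -0.55 ± 0.24 that missed the threshold (Cuffdiff q 0.0728 in the authors' deposited table). Adjusted within this comparison alone, Fasn in WT passed as lower (q 0.0497). The 2 tunicamycin values of Fasn lie close together, while the DMSO values lie far apart.

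Of the enzymes that modify the finished chain, Elovl6 fell in both genotypes and Scd1 was not called. Elovl6 had 28.4 FPKM in KO tunicamycin livers, against 52.9 FPKM in KO DMSO livers, and 32.8 FPKM in WT tunicamycin livers, against 47.3 FPKM in WT DMSO livers. In the authors' deposited table its log2 changes were -0.90 ± 0.21 in KO (Cuffdiff q 0.000396) and -0.53 ± 0.21 in WT (Cuffdiff q 0.0429). The Scd1 changes were -0.50 ± 0.44 in KO and -0.49 ± 0.55 in WT (Cuffdiff q 0.477 and 0.602 in the authors' deposited table). The SE of Scd1 is the widest of the members in both genotypes, so a change of this size was not detectable.

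Thrsp fell in both genotypes but further in KO. It had 112 FPKM in KO tunicamycin livers, against 472 FPKM in KO DMSO livers, and 190 FPKM in WT tunicamycin livers, against 344 FPKM in WT DMSO livers. The log2 changes in the authors' deposited table were -2.07 ± 0.21 in KO (Cuffdiff q 0.000396) and -0.85 ± 0.22 in WT (Cuffdiff q 0.0014). Pnpla3 fell in KO to 0.527 FPKM after tunicamycin, against 1.34 FPKM after DMSO, a log2 change of -1.34 ± 0.39 (Cuffdiff q 0.00726, authors' deposited table). In WT livers, with 0.166 FPKM after tunicamycin and 0.398 FPKM after DMSO, the authors' program made no test for Pnpla3.

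**Figure D2:**
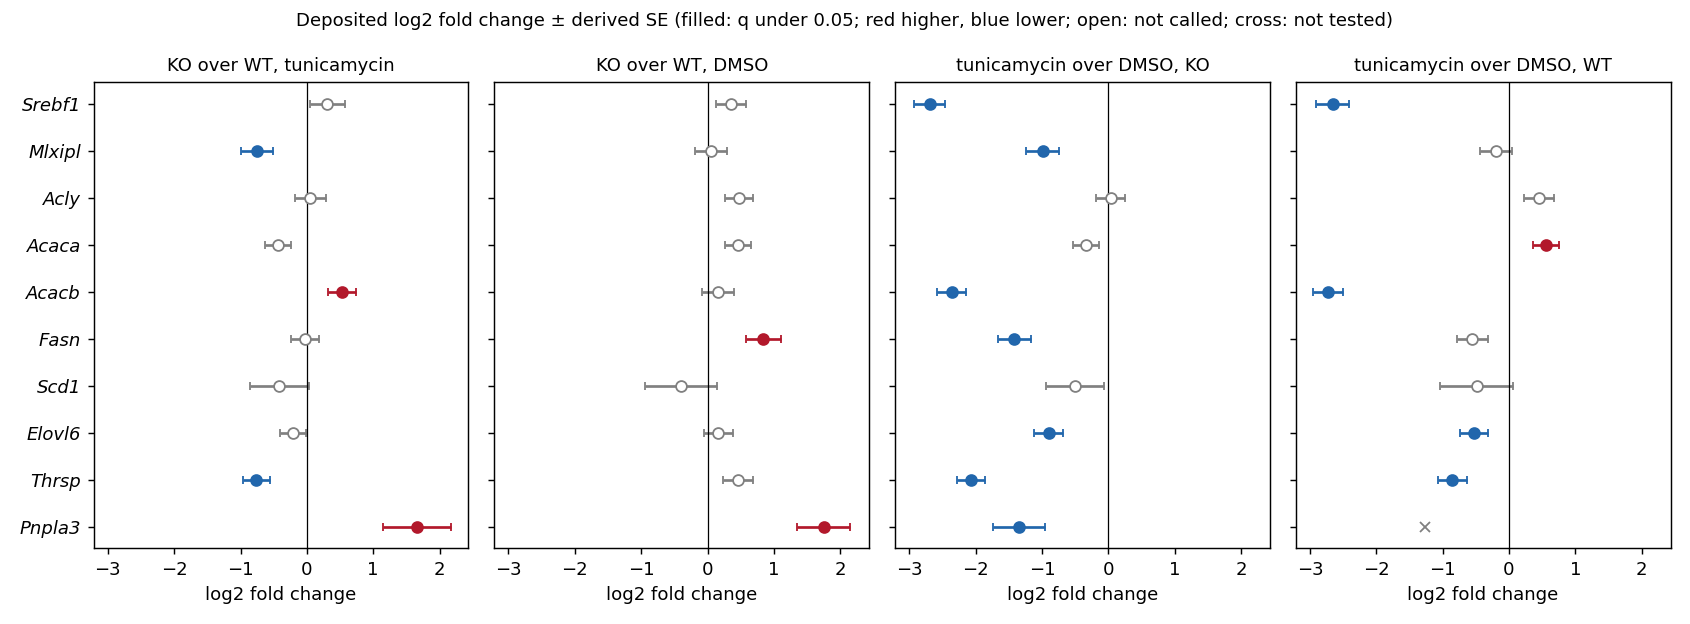
Deposited log2 fold change with its derived SE (x axis) of each gene (y axis) in 4 comparisons, KO over WT under tunicamycin and under DMSO and tunicamycin over DMSO in KO and in WT. Filled points passed the deposited q of 0.05, red higher and blue lower. Blue points dominate the KO response (7 of 10), while the WT response holds 4 blue points and 1 red one, Acaca.

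Whether the genotypes differ in response was tested directly for 14510 loci, as the difference of the 2 log2 changes over its own SE, with Benjamini-Hochberg adjustment over all of them. Of the 9 members that could be tested, 1 was called: the response of Thrsp was lower in KO by a log2 difference of -1.22 (SE 0.30, 95% interval -1.81 to -0.62, z test q 0.00936). Over all loci, 0.372% were called in that direction. The median difference of the 9 was -0.42, against 0.04 over all loci tested. The next in size did not pass: Acaca -0.89 (95% interval -1.44 to -0.35, q 0.107), Fasn -0.87 (95% interval -1.54 to -0.19, q 0.435) and Mlxipl -0.80 (95% interval -1.47 to -0.12, q 0.602). For Srebf1 the difference was -0.04, with a 95% interval of -0.71 to 0.64 (q 1). For Acacb it was 0.37 (95% interval -0.26 to 0.99, q 1), for Acly -0.42 (95% interval -1.04 to 0.19, q 1) and for Elovl6 -0.37 (95% interval -0.96 to 0.21, q 1). Scd1 had the widest interval, -1.39 to 1.37 around -0.01 (q 1). This difference uses the KO DMSO libraries, so lane cannot be told apart from it. Cell type markers moved in the same test: of the 6 endothelial markers, 4 (Cdh5, Kdr, Stab1 and Stab2) were called lower in KO and the list's median difference was -1.10. Among the markers of other tissues, 1 of 3 adipocyte, 2 of 4 adrenal cortex and 2 of 3 skeletal muscle markers tested were called higher. These include the adrenal Star (q 5.57e-16) and the muscle Acta1 (q 1.57e-05). Cuffdiff did not call the KO response of either (q 0.222 and 0.169), so the derived SE and the deposited test disagree there. Of 7 hepatocyte markers, 0 were called in either direction (median difference 0.08). The part of cell type markers in the Thrsp value was not tested. Of the 2 contrasts behind it for Thrsp, KO was lower than WT under tunicamycin, where all libraries share lane 4, and the KO value of 472 FPKM against 344 FPKM in WT under DMSO was not called.

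**Figure D3:**
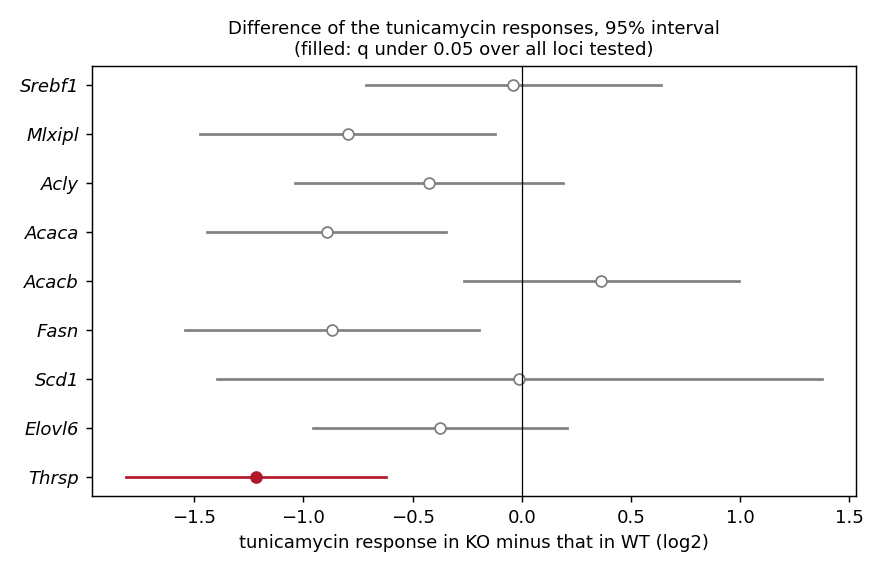
Tunicamycin response in KO minus that in WT (log2, x axis) with its 95% interval for the 9 genes that could be tested (y axis). Only the filled point, Thrsp at -1.22, passed the adjusted threshold, and the intervals of Acaca, Fasn and Mlxipl also lie below 0 without passing it.

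Under tunicamycin, 4 of 10 members differed between the genotypes, in both directions. Thrsp and Mlxipl were lower in KO, and Acacb and Pnpla3 were higher. The background was 2.19% of loci lower and 3.73% higher in this comparison, and the median log2 difference of the 10 was -0.12, against -0.04 over all loci tested. All 6 libraries ran on lane 4. This comparison shares the KO and WT tunicamycin libraries with the responses above and is not independent of them.

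Thrsp had 112 FPKM in KO tunicamycin livers, against 190 FPKM in WT tunicamycin livers, a log2 difference of -0.76 ± 0.20 in the authors' deposited table (Cuffdiff q 0.00171). Mlxipl had 46.6 FPKM in KO and 78.3 FPKM in WT, with -0.75 ± 0.24 (Cuffdiff q 0.011). Acacb had 5.88 FPKM in KO and 4.08 FPKM in WT, with 0.53 ± 0.21 (Cuffdiff q 0.0444, authors' deposited table). Pnpla3 had 0.527 FPKM in KO and 0.166 FPKM in WT, a 3.17-fold higher level at the low end of the scale (log2 1.67 ± 0.51, Cuffdiff q 0.0145, authors' deposited table). The remaining 6 were not called, with log2 differences of 0.31 ± 0.26 for Srebf1, 0.05 ± 0.23 for Acly, -0.43 ± 0.20 for Acaca, -0.02 ± 0.21 for Fasn, -0.41 ± 0.44 for Scd1 and -0.21 ± 0.20 for Elovl6. The deposited q pools the tests of 6 comparisons. Adjusted within this comparison alone, Thrsp kept its call (q 0.00992), while Mlxipl (q 0.0548), Pnpla3 (q 0.071) and Acacb (q 0.192) did not.

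Markers of other tissues moved with this contrast, with 5 of 6 skeletal muscle, 3 of 6 adrenal cortex and 2 of 7 adipocyte markers tested called higher in KO. Of the 8 adipocyte markers, 1 was under 1 FPKM in KO tunicamycin livers, against 6 in WT tunicamycin livers. The 2 called adipocyte markers were Cfd and Fabp4. The adipokine Adipoq had 10.7 FPKM in KO, against 0.0641 FPKM in WT, and was not called (Cuffdiff q 0.0547). The lipid-droplet coat Plin1 had 4.32 FPKM in KO, was listed at 0 in WT and was not called either (Cuffdiff q 0.0638). The nuclear receptor Pparg, which adipocytes hold at high levels, had 9.18 FPKM in KO, against 5.24 FPKM in WT (log2 0.81, Cuffdiff q 0.00553, authors' deposited table). The 7 hepatocyte markers tested had a median log2 difference of -0.33, with 0 called and 0 at an unadjusted Cuffdiff p under 0.05. The part of other tissues in the values of Pnpla3, Acacb, Mlxipl and Thrsp was not tested.

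Under DMSO, without induced stress, 2 of 10 members differed and both were higher in KO, Fasn and Pnpla3. At the deposited q the background was 1.39% of loci higher and 1.47% lower. At an unadjusted Cuffdiff p under 0.05 there were 5 members higher and 0 lower. At that p, 1055 of 14788 loci tested passed in either direction. Fasn had 109 FPKM in KO DMSO livers, against 60.7 FPKM in WT DMSO livers, 1.79-fold higher (log2 0.84 ± 0.27, Cuffdiff q 0.00985, authors' deposited table). Pnpla3 had 1.34 FPKM in KO and 0.398 FPKM in WT, 3.36-fold higher (log2 1.75 ± 0.40, Cuffdiff q 0.000396, authors' deposited table). Pnpla3 was thus higher in KO under both treatments. The log2 differences of Acly (0.48 ± 0.21, Cuffdiff q 0.0833), Acaca (0.46 ± 0.20, Cuffdiff q 0.0683) and Thrsp (0.46 ± 0.22, Cuffdiff q 0.134) were not called in the authors' deposited table. The others were 0.35 ± 0.22 for Srebf1, 0.05 ± 0.24 for Mlxipl, 0.16 ± 0.24 for Acacb, 0.16 ± 0.22 for Elovl6 and -0.40 ± 0.55 for Scd1.

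The median over the 10 under DMSO was 0.40, against -0.07 over all loci tested. This contrast sets lane 5 against lane 4, so lane and genotype cannot be told apart. Adjusted within this comparison, Pnpla3 kept its call (q 0.0109) and Fasn did not (q 0.161). The 6 endothelial markers summed to 69.8 FPKM in KO DMSO livers, against 40 FPKM in WT DMSO livers, and all 6 were called higher, while the 7 hepatocyte markers tested had a median log2 difference of -0.36 with 0 called and 0 at an unadjusted Cuffdiff p under 0.05. Of 5 stellate cell markers, 3 (Acta2, Col1a1 and Col1a2) were called higher. Of the 8 adipocyte markers, 4 were tested and 1 was called higher, Cfd, with 2.75 FPKM in KO DMSO livers, against 0.182 FPKM in WT DMSO livers. Adipoq had 0.448 FPKM in KO and 0.0142 FPKM in WT and was not tested, and 5 of the 8 were under 1 FPKM in KO, against 6 in WT. The part of these markers in the values of Fasn and Pnpla3 was not tested.

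Genes around the route were read from 6 lists of 73 genes, of which 71 matched a locus. Their counts after tunicamycin stand beside 18.1% of all loci tested called higher and 14.8% lower in KO, and 18.1% higher and 19.0% lower in WT. Between the genotypes few loci were called in all, 3.73% higher and 2.19% lower under tunicamycin and 1.39% higher and 1.47% lower under DMSO. The genes that control the release of SREBP had 2 higher and 3 lower of 8 tested after tunicamycin in KO and the same 5 genes in WT. Insig1, which holds SREBP in the ER and is itself an SREBP target, fell by 1.72 in KO and 1.77 in WT on the log2 scale. Its relative Insig2 rose by 1.36 in KO and 1.31 in WT. The protease gene Mbtps2, read from a locus merged with Yy2, rose by 0.93 in KO and 0.99 in WT. Srebf2, which encodes the sterol-directed factor, fell by 0.62 in KO and 0.86 in WT. These 4 are log2 changes of the authors' deposited table with Cuffdiff q of at most 0.00914. The list's median log2 change was -0.45 in KO and -0.58 in WT.

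The partners of ChREBP and the sugar-responsive genes had 1 higher and 4 lower of 10 tested in KO, and 1 higher and 2 lower of 10 in WT, with medians of -0.39 and -0.15. Pklr (liver pyruvate kinase) fell in both, by 1.07 in KO and by 0.56 in WT on the log2 scale of the authors' deposited table. G6pc, the catalytic subunit of glucose-6-phosphatase, fell in KO by 1.04, and Khk, which phosphorylates fructose, fell in KO by 0.81. Their WT changes of -0.21 and -0.46 were not called, and the differences of responses for G6pc (-0.83, q 0.256) and Khk (-0.36, q 1) did not pass. Under tunicamycin G6pc was lower in KO, at 81.8 FPKM against 134 FPKM in WT (log2 -0.71, Cuffdiff q 0.00502, authors' deposited table). Under DMSO Mlxip, a ChREBP relative, was higher in KO (3.78 FPKM against 2.43 FPKM in WT, Cuffdiff q 0.0227, authors' deposited table).

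Supply of acetyl-CoA and NADPH had counts near the shares over all loci after tunicamycin, with 3 higher and 3 lower of 13 tested in KO and 3 higher and 4 lower of 13 in WT (medians 0.01 and -0.04). Malic enzyme Me1, a source of NADPH, rose by 0.53 in KO and 0.66 in WT, and the pyruvate dehydrogenase subunit Pdhb rose by 1.47 in KO and 1.72 in WT on the log2 scale of the authors' deposited table. The citrate carrier Slc25a1, which feeds Acly, fell by 0.77 in KO and 0.99 in WT. Between the genotypes 0 of 13 were called under either treatment, also at an unadjusted Cuffdiff p under 0.05. Among regulators of acetyl-CoA carboxylase, 2 were higher and 3 lower of 10 in KO, and 2 higher and 4 lower of 10 in WT (medians -0.17 and -0.19), with the higher ones near the 18.1% of all loci. Mid1ip1, a relative of Thrsp whose protein promotes polymerization of the carboxylase, fell by 1.37 in KO and 1.63 in WT. The malonyl-CoA decarboxylase gene Mlycd fell by 0.83 and 1.24, and Prkab2, a subunit of the kinase AMPK that inhibits the carboxylase, rose by 2.33 and 2.67, each in KO and then in WT. Other AMPK subunit genes went both ways. In the same order, Prkab1 was higher (log2 0.56 and 0.61) and Prkaa2 lower (log2 -0.75 and -0.76). Prkag2 was called lower in WT alone (log2 -0.77), and Prkaa1 and Prkag1 were not called in either. Thrsp and Mid1ip1 thus both fell in both genotypes. For Mid1ip1 the difference of responses was 0.26 (q 1) and for Thrsp it was the -1.22 given above.

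Nuclear receptors and insulin signalling had 2 higher and 7 lower of 15 tested in KO, and 1 higher and 7 lower in WT, with medians of -0.61 and -0.54. Lower in both were the lipogenic receptor LXR alpha, made from Nr1h3 (log2 -0.57 in KO and -0.83 in WT), its partner Rxra (-1.31 in KO and -1.23 in WT), the coactivator Ppargc1b (-2.14 in KO and -1.60 in WT), the thyroid hormone receptor Thrb (-1.15 in KO and -1.02 in WT) and the insulin receptor Insr (-0.69 in KO and -0.54 in WT), all in the authors' deposited table. Irs1 was lower in both as well (log2 -0.86 in KO and -0.74 in WT). Irs2, an adaptor of the insulin receptor, had 2.71 FPKM in KO tunicamycin and 4.79 FPKM in WT tunicamycin livers. Under DMSO it had 4.78 FPKM in KO and 4.8 FPKM in WT livers. Irs2 was lower in KO tunicamycin livers than in WT tunicamycin livers (log2 -0.82, Cuffdiff q 0.000396, authors' deposited table), and the other 3 groups lay close together. Its difference of responses (-0.82, q 0.272) did not pass.

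Triglyceride synthesis, where the fatty acids go, had 3 higher and 6 lower of 14 tested in KO, and 4 higher and 5 lower of 14 in WT, with medians of -0.22 and -0.05, and the share of higher genes in KO is close to the 18.1% of all loci. Gpam, the first acyltransferase, fell by 1.53 in KO and 1.98 in WT, and Agpat2, the next one, had log2 changes of -1.42 in KO and -1.83 in WT. The acyl-CoA synthetase Acsl4 rose by 2.13 in KO and 2.29 in WT, and the phosphatidate phosphatase Lpin3 by 2.06 in KO and 2.45 in WT. Lpin1, a relative of Lpin3, moved in opposite directions, with 63.1 FPKM in KO tunicamycin livers, against 128 FPKM in KO DMSO livers, and 108 FPKM in WT tunicamycin livers, against 53.2 FPKM in WT DMSO livers. The deposited log2 changes were -1.02 in KO and 1.02 in WT (Cuffdiff q 0.000747 and 0.000396, authors' deposited table), and their difference was -2.04 (SE 0.32, z test q 2.05e-07). Under DMSO Lpin1 was higher in KO (log2 1.26, Cuffdiff q 0.000396) and under tunicamycin lower (log2 -0.78, Cuffdiff q 0.00397, authors' deposited table). Lpin2 was lower in KO under tunicamycin (log2 -0.55, Cuffdiff q 0.0353) and Gpam higher (log2 0.55, Cuffdiff q 0.0253, authors' deposited table).

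**Figure D4:**
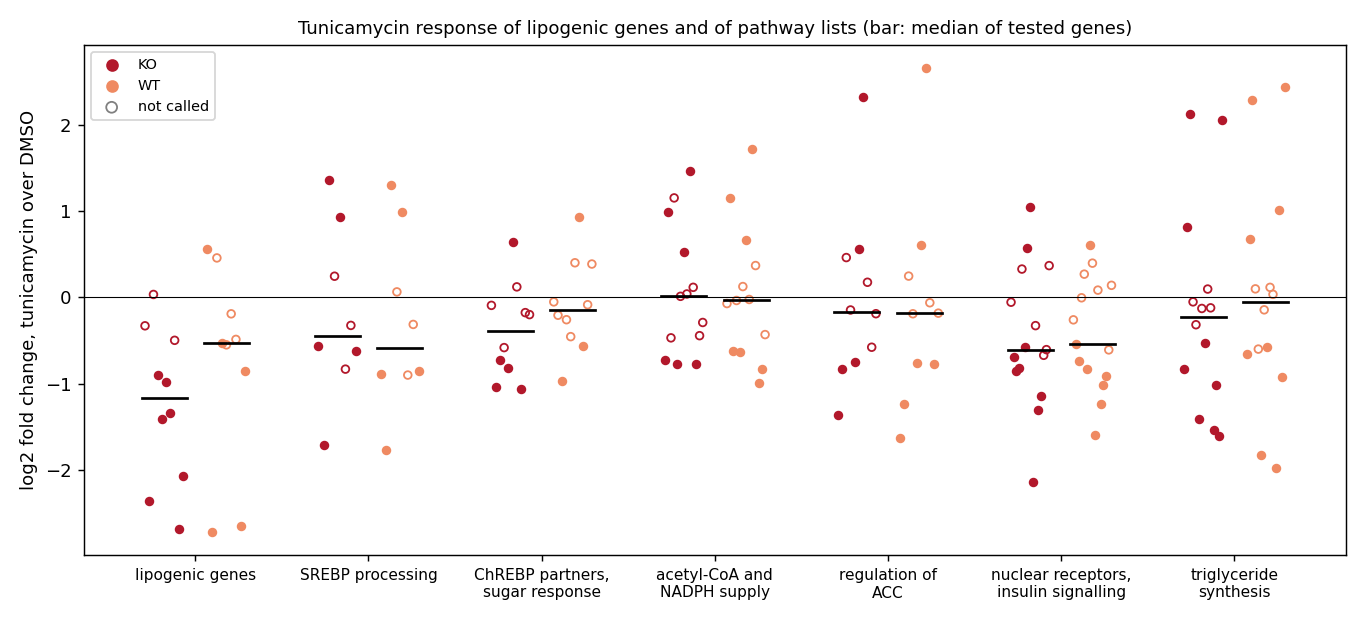
Deposited log2 fold change of tunicamycin over DMSO (y axis) for each tested gene of the lipogenic set and of the 6 lists (x axis), KO left and WT right in each pair, filled where called, with a bar at the median. The lipogenic genes have medians of -1.17 in KO and -0.53 in WT, while acetyl-CoA and NADPH supply lies at 0.01 and -0.04.

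Genes with the most similar group profile were sought for 4 members among 6532 other loci with at least 5 FPKM in all groups, by the Euclidean distance between log2 FPKM over the 4 groups after each was centred on its mean. Nearest to Srebf1 were Aldh1b1 (distance 0.19; 10.1, 7.41, 64.6 and 56.3 FPKM in KO tunicamycin, WT tunicamycin, KO DMSO and WT DMSO), Alas1 (0.24) and Lrp1 (0.27). Nearest to Mlxipl were G6pc (0.07), Fga (0.14) and Cep85l (0.19), and G6pc had 81.8, 134, 168 and 154 FPKM in that order of groups. Fasn was nearest to Aacs, which activates acetoacetate for lipid synthesis (distance 0.20), then to Lcn2 (0.24) and Cmah (0.29). Pnpla3 had no close neighbour among these loci. The nearest, a locus merged from the carboxylesterases Ces2b and Ces2e, lay at 0.82, followed by Mgmt (0.91) and Ephx1 (1.03). Pnpla3 itself, at 0.166 to 1.34 FPKM, lies below the limit of 5 FPKM. Loci at its own level were therefore not searched. With 4 points per profile these are descriptions only.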

How the data were processed

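The submitters' processing notes name bcl2fastq, TopHat2 2.0.4, Cufflinks, Cuffdiff and the mouse build mm9. Not given in the sources used here were annotation, filters, use of strand and scaling between libraries. Per the file headers, the authors deposited 1 FPKM per locus and group, and for each of 6 comparisons the log2 fold change with its test statistic, p-value and q-value. Adjusting the deposited p-values of all 6 comparisons jointly (90828 tests, Benjamini-Hochberg) gave the deposited q within 5.29e-07. A locus was called at a deposited q under 0.05 with test status OK; the 4 comparisons that change 1 factor were used. The SE of a log2 fold change was its size over the test statistic. The statistic was first multiplied by 1 factor per comparison, so that a normal distribution follows the deposited p-values as a set. The p-value of a single locus is not returned by this and can differ widely from the deposited one. The SE served the test of the difference of responses. That test was run on simulated data with normal noise drawn from the same derived SE. Such a run checks the code and cannot show whether the derived SE or a normal distribution hold for these libraries. Of a symbol at several loci, the one with the highest mean FPKM was used. All 10 members are named, and any list gene that was called may be; some called list genes are counted but not reported here by name. The members and lists were chosen with earlier results of these data known. Locus starts were converted to count from 1, since the deposited ones count from 0. Counts per library were not used, so depth is unknown. Columns of per-sample values left unused numbered 0. Software was Python 3.11.15 with matplotlib 3.10.9, scipy 1.17.1, pandas 2.3.3 and numpy 2.4.6. Alternatives were q within a comparison, a q of 0.01, a minimum of 2-fold, a minimum of 1 FPKM, a normal test and a shift to median 0. For single members the log2 of FPKM + 1 was read as well.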

Additional observations from a re-analysis of the deposited data

Results flagged for a closer look

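The tunicamycin response differed between the genotypes for Thrsp, by -1.22 on the log2 scale (KO minus WT, SE 0.30, z test q 0.00936). The triglyceride synthesis gene Lpin1 differed by -2.04 (SE 0.32, z test q 2.05e-07), with opposite directions in KO and WT. Both values include the KO DMSO libraries, the only ones on lane 5, and the part of lane was not tested.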

How the results depend on the processing

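For KO against WT under tunicamycin, the count of called members of 4 became 1 with q adjusted within the comparison (Thrsp), 1 at a q of 0.01 (Thrsp), 1 at a minimum of 2-fold (Pnpla3), 1 with a minimum of 1 FPKM in both groups (Thrsp) and 2 after a shift to median 0 (Thrsp and Pnpla3). Under DMSO the count of 2 became 1 with q within the comparison, 1 at 2-fold, 1 with the normal test (Pnpla3 in all 3) and 0 with the minimum of 1 FPKM, where 4 of the 9 members tested by Cuffdiff had an unadjusted p under 0.05. The WT response of 5 members became 3 at a q of 0.01, 2 at 2-fold and 6 under each of the other 4 alternatives, where Fasn was called lower as well. The KO response of 7 members lay between 5 and 7, and the difference of responses stayed at 1 (Thrsp). The shift moved the log2 change of all loci by up to 0.13, under DMSO between the genotypes. It turned the uncalled Fasn value in KO against WT under tunicamycin to 0.0518 and the uncalled Acly response in KO to -0.0336; the shift is the cause by construction. Of 297 alternatives for single members, 266 kept direction and call, 25 lost the call, 4 gained it and 2 turned. Many of the 266 could not have changed. Only the shift could turn a direction. A q of 0.01 or a minimum of 2-fold can only remove calls. The log2 of FPKM + 1, counted here as well, had no test and kept the deposited call. The 266 are thus no measure of robustness. No paired analysis was possible because the table holds 1 value per group and no label pairs libraries. For the same reason leaving out a library was not run, and whether 1 library carries a group's value cannot be seen.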
